A study of Ovis aries with 30 samples.

Results

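Brown adipocytes are set apart from other fat cells by a small group of transcription factors and co-regulators, and the 9 genes described here are members of that group or markers of it. They were PRDM16, EHMT1, EBF2, CIDEA, GABPA, LHX8, ZIC1, CEBPA and CEBPB, and they were taken by symbol from the deposited count table, in which each matched 1 row of 28524 genes. RNA had been sequenced from brown adipose tissue (BAT) dissected from around the kidneys and from thyroid tissue (TH) of 15 newborn Romney lambs, each born as a twin and each from a different dam. The cold group (n = 6) was housed indoors at 4 °C for 2 days, the ambient-temperature group (AT, n = 6) was housed indoors at 20–22 °C for 2 days, and the control group (n = 3) was sampled about 24 h after birth. The treated lambs were therefore 2 days older than the controls, so that treatment and age cannot be told apart in any comparison with the controls, whereas cold and AT lambs had the same age. Every library came from 1 tissue of 1 lamb, and libraries are named below by group and number, with the 2 libraries of a lamb sharing a name. The study left 1 control lamb out for its aberrant counts, which its per-lamb values identified as Control 2 here, and tests used the other 2 controls unless stated.

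In brown adipocytes, PRDM16 works as a co-regulator that binds DNA-bound partners such as C/EBPβ and PPARγ and recruits the histone methyltransferase EHMT1 (also known as GLP), which silences muscle genes and stabilizes PRDM16. EBF2 opens chromatin at brown fat genes together with PPARγ, while the C/EBP factors act in adipocyte differentiation. GABPα, the DNA-binding subunit of the GA-binding protein, controls nuclear genes for mitochondrial proteins. CIDEA coats lipid droplets and is a transcriptional target of this programme, and LHX8 and ZIC1 are known mainly as markers of classical, interscapular-type brown fat in rodents. Perirenal fat of newborn lambs is a brown depot that turns into white fat during the first weeks of life.

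The libraries held 31556500 to 37025998 counts in BAT and 25062784 to 30124871 in TH, but 2 genes without a symbol took between 43.8% and 76.5% of the counts in BAT, leaving 8093700 to 18276329 counts there for all other genes. Deposited counts divided by a size factor per library, taken from the reference genes ACTB, RPL19 and HUWE1, are called normalized counts, and 3 counts in a single library correspond to between 1.63 and 6.45 normalized counts in BAT and between 2.48 and 4.74 in TH. A gene was called when edgeR's quasi-likelihood test with Benjamini-Hochberg adjustment over all genes tested in that comparison gave an adjusted p under 0.05 together with a log2FC of at least 1 in size. The tissue labels were borne out by marker sums, since 9 thyroid follicular genes summed to at least 1325900 normalized counts in every TH library and to at most 1572 in every BAT library. A set of 13 white and general adipocyte genes summed to between 29736 and 316952 normalized counts in BAT and to between 3860 and 15019 in TH, so thyroid libraries also held fat cell transcripts. Libraries that stood apart were the unused Control 2 in both tissues, AT 6 in BAT with the lowest UCP1 (195 normalized counts, against 768 to 22462 in the other 13 libraries of the tests), and AT 3 and Control 1 in TH, whose skeletal muscle gene sums of 3469290 and 322868 compared with at most 4461 elsewhere. Because whole tissue was sequenced, fewer cells of a type and less RNA per cell cannot be told apart.

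On the Oar_rambouillet_v1.0 assembly used by the authors, PRDM16 spans chr12:53409095-53747377 on the minus strand, EHMT1 chr3:246073-353463 on the minus strand, EBF2 chr2:41658514-41878534 on the plus strand and CIDEA chr23:48267310-48277937 on the plus strand. Chromosome 1 carries LHX8 at chr1:55300484-55324111 (plus), GABPA at chr1:139254466-139294734 (minus) and ZIC1 at chr1:262535490-262539335 (minus). CEBPA at chr14:46634838-46635925 (minus) and CEBPB at chr13:81625076-81626491 (plus) are compact genes with annotated exon lengths of 1088 and 1416 bases, whereas PRDM16 has 9120 bases of exon. All 9 are annotated as protein coding, and the counts cover the exons of each gene together.

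Per kilobase of exon, CIDEA was the most abundant of the 9 in BAT, with 1015 ± 643 normalized counts per kb (mean ± SD, n = 14 libraries). EHMT1 (382 ± 82.0), CEBPA (325 ± 179) and EBF2 (305 ± 122) came next and did not differ from each other beyond their spread, and CEBPB stood at 211 ± 84.4. GABPA reached 95.2 ± 14.6 normalized counts per kb with the smallest relative spread of the members (coefficient of variation 15.3%), and PRDM16 reached 24.2 ± 9.82. LHX8, at 5.69 ± 4.04, was near the level of a few counts, and ZIC1 had 0 counts in all 15 BAT libraries. Size factors were set within each tissue, so that these values rank genes within a tissue and are not compared between tissues. In TH the order per kb was different, with EHMT1 (516 ± 74.7), CEBPB (399 ± 203) and GABPA (228 ± 44.2) on top, EBF2 at 85.0 ± 16.3, and CIDEA (40.0 ± 27.3), CEBPA (22.6 ± 11.2) and PRDM16 (3.14 ± 1.24) far below.

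Between treatments in BAT, none of the 7 members that passed the filter on low counts was called by edgeR in any comparison, and LHX8 and ZIC1 did not pass it. The share of all 14905 genes called was 1.21% for cold against control, 6.07% for AT against control and 0.275% for cold against AT. At an unadjusted p under 0.05 the members counted 2 (PRDM16 and EBF2), 1 (PRDM16) and 0 of 7, beside 18.14%, 25.95% and 12.28% of all genes, so these counts are near the background. DESeq2's Wald test called 0, 1 (PRDM16) and 0. The median log2FC of the 7 members was -0.10 for cold against control, -0.05 for AT against control and -0.11 for cold against AT. Over all genes tested it was -0.10, -0.03 and -0.05. None of the reference genes behind the size factors was called against control, but they were not level with each other. In AT, ACTB gave a log2FC of -0.67 (adjusted p = 0.0611 by edgeR), RPL19 0.31 and HUWE1 0.07. In cold, ACTB gave -0.38, RPL19 0.27 and HUWE1 -0.04.

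**Figure D1:**
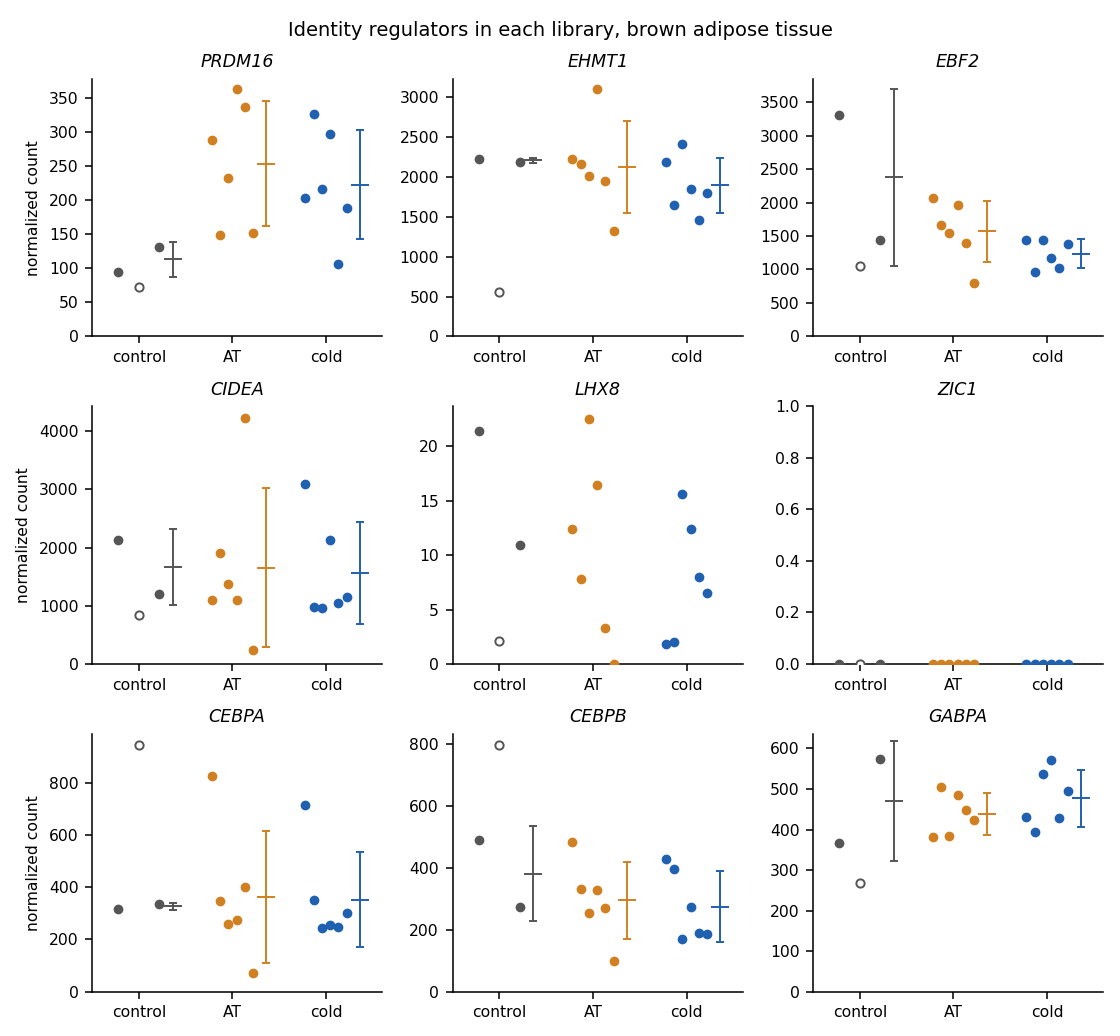
Normalized counts of the 9 genes in each BAT library, by group (vertical axes start at 0 and differ between panels). Filled points are the lambs used in the tests, the open point is Control 2, and bars give mean ± SD of the filled points for genes with enough counts (not drawn for LHX8 and ZIC1). PRDM16 lies higher in the treated lambs than in the controls, with Cold 5 as the exception, and ZIC1 is at 0 throughout.

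PRDM16 was higher in treated BAT, without passing the test with 2 controls. The controls held 94.9 (Control 1) and 131 (Control 3) normalized counts, the AT lambs ranged from 148 to 364 (median 261) and the cold lambs from 107 to 327 (median 209). Every AT library lay above both controls, and in the cold group only Cold 5 lay below Control 3. The log2FC was 1.16 ± 0.42 (SE) for AT against control (2.23-fold, adjusted p = 0.0965) and 0.97 ± 0.42 for cold against control (1.96-fold, adjusted p = 0.225) by edgeR. Control 2, the lamb left out, had the lowest value of all at 73.1 normalized counts, from 34 reads, and with it the AT difference was 1.40 (adjusted p = 0.0259 by edgeR) and was called. DESeq2's Wald test with 2 controls also called it (1.16, adjusted p = 0.0413). Cold and AT lambs overlapped over most of their range, with a log2FC of -0.18 and a 95% interval from -0.76 to 0.40.

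PRDM16 was the single member whose AT and control libraries did not overlap in BAT. Groups did not overlap in 24.3% of all genes in that comparison, so 1 of 7 is below the background. No member separated cold from control (24.6% of all genes did) or cold from AT (0.691%).

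EHMT1, the methyltransferase that PRDM16 recruits, showed no difference that passed the test. Both controls were close together (2232 and 2186 normalized counts), the AT lambs ranged from 1324 to 3106 (median 2087) and the cold lambs from 1466 to 2412 (median 1827). Both treated groups included values above and below the controls. The log2FC was -0.05 (95% interval -0.61 to 0.51) for AT and -0.22 (-0.77 to 0.33) for cold, so changes of 2-fold lay outside both intervals. Control 2 stood apart with 553 normalized counts, and including it turned both estimates positive (0.45 and 0.27, adjusted p = 0.41 and 0.689 by edgeR).

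EBF2, the chromatin-opening partner of PPARγ in brown fat, went the other way from PRDM16 in the cold lambs. Control 1 held 3315 normalized counts and Control 3 held 1444, against 965 to 1444 in the cold lambs (median 1277) and 799 to 2070 in the AT lambs (median 1605). The highest cold library was level with Control 3, and 4 of 6 AT libraries lay between the controls. The log2FC was -0.94 ± 0.32 for cold (adjusted p = 0.127) and -0.60 ± 0.32 for AT (adjusted p = 0.251) by edgeR. The difference rested on Control 1, because without it edgeR gave -0.24 for cold (adjusted p = 0.844) and 0.13 for AT (adjusted p = 0.897). Control 2 held 1058 normalized counts, and with all 3 controls edgeR gave -0.58 for cold (adjusted p = 0.299).

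CEBPA and CEBPB, the leucine zipper factors of adipocyte differentiation, varied more between lambs of one group than between groups. CEBPA stood at 317 and 336 normalized counts in the controls, between 71.6 and 829 in the AT lambs (median 310) and between 246 and 716 in the cold lambs (median 278). AT 1 and Cold 1 were the high libraries and AT 6 the low one, and all other treated libraries lay within 246 to 400. The estimates were close to 0, at 0.10 for cold (95% interval -1.20 to 1.40) and 0.15 for AT (-1.15 to 1.45), with intervals wide enough to hold a doubling. CEBPB held 491 and 272 normalized counts in the controls, 99.3 to 484 in the AT lambs (median 300.1) and 169 to 430 in the cold lambs (median 232). Its log2FC was -0.48 ± 0.45 for cold and -0.37 ± 0.45 for AT (adjusted p = 0.622 and 0.646 by edgeR), and both groups overlapped the controls. Control 2 carried the highest value of both genes in BAT (944 and 798 normalized counts).

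Across the BAT libraries both C/EBP genes moved together, with a Pearson r of 0.82 (Spearman rho 0.74) over log2 normalized counts of 14 libraries that share group, depth and scaling. The ratio of CEBPB to CEBPA counts within a library does not depend on the size factor. On the log2 scale it was -0.35 ± 0.40 (SD, n = 6) in cold, -0.12 ± 0.48 (n = 6) in AT and 0.16 ± 0.66 (n = 2) in control BAT, each mean within 1 SD of equal counts. In TH the ratio was 4.55 ± 0.70 in cold, 4.18 ± 0.71 in AT and 5.65 ± 0.21 in the 2 controls, so that CEBPB counts far exceeded CEBPA counts in every thyroid library. With Control 2 the thyroid control mean was 5.23 ± 0.74 (n = 3), and its own ratio of 4.40 lay inside the range of the treated lambs.

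**Figure D2:**
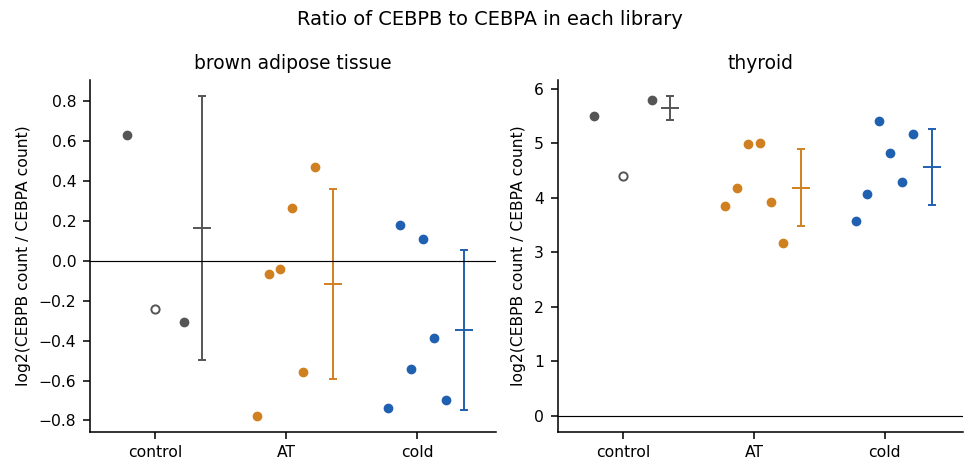
Log2 ratio of CEBPB to CEBPA counts in each library of BAT (left) and TH (right), by group (vertical ranges differ). Filled points are lambs used in the tests, the open point is Control 2, bars are mean ± SD, and the line at 0 marks equal counts: BAT libraries lie within 1 log2 unit of it, TH libraries between 3.17 and 5.80.

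GABPA was the steadiest member in BAT. The controls held 366 and 575 normalized counts, the AT lambs 381 to 505 (median 435) and the cold lambs 395 to 572 (median 464), so both treated groups lay between the controls. The log2FC was 0.02 (95% interval -0.42 to 0.45) for cold and -0.11 (-0.54 to 0.32) for AT, and cold against AT gave 0.12 (-0.18 to 0.43). Its partner GABPB1, the subunit that carries the activation domain, gave -0.16 ± 0.27 for cold and 0.18 ± 0.27 for AT, neither called.

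CIDEA, the lipid droplet protein and brown fat marker, was abundant and the most variable of the 7 tested members (coefficient of variation 63.4% over 14 libraries). The controls held 2131 and 1203 normalized counts, the AT lambs 244 (AT 6) to 4226 (AT 5) with a median of 1235, and the cold lambs 970 to 3088 (Cold 1) with a median of 1095. The group means of 1667, 1656 and 1560 normalized counts for control, AT and cold were closer together than any group's SD. Its log2FC was -0.10 for cold (95% interval -1.62 to 1.42) and -0.01 for AT (-1.54 to 1.52), so that the data do not separate no change from a change of more than 2-fold either way.

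LHX8 was detected at low level in 14 of the 15 BAT libraries, with 0 to 21 reads each. In normalized counts the controls held 21.4 and 10.9, the AT lambs 0 to 22.5 (median 10.1) and the cold lambs 1.86 to 15.6 (median 7.27). The groups overlapped, most values were within a few times the level of 3 counts, and no treatment test was made in BAT because fewer than 10 libraries held 10 reads. For ZIC1, a count of 0 in each of the 15 BAT libraries allowed a level of up to 1.63 to 6.45 normalized counts per library, which covers counting error only. ZIC4, a neighbour of ZIC1 in its family, was at 0 in every BAT library as well.

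**Figure D3:**
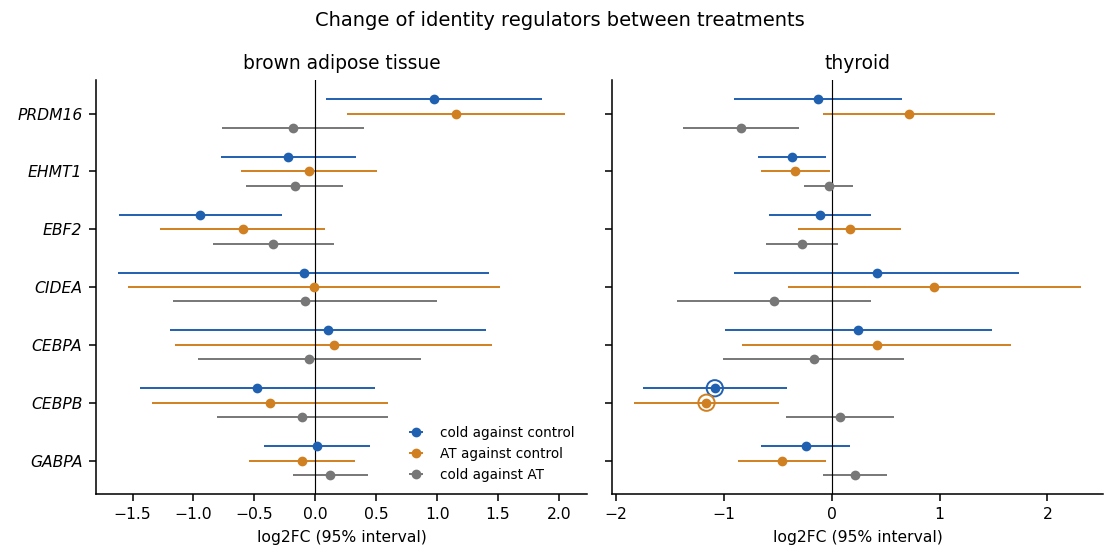
Log2FC with 95% intervals for the 7 members tested within BAT (left) and TH (right). Colours give cold against control, AT against control and cold against AT, and rings mark the 2 called differences (CEBPB in TH): in BAT the intervals of PRDM16 against control lie above 0, that of EBF2 in cold lies below it, and the others include it.

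Single lambs differed in several members at once. AT 6 had the lowest CIDEA (244), CEBPA (71.6), CEBPB (99.3), EBF2 (799) and EHMT1 (1324) of the 14 BAT libraries, while its PRDM16 (152) and GABPA (422) lay inside the range of the other libraries. The same library had the lowest UCP1 (195 normalized counts) and the highest sum of 12 preadipocyte and fibroblast genes, at 159185 against 32385 to 96918 in the other 13 libraries of the tests. The part of those cells in the low values was not tested. AT 4 combined the highest PRDM16 (364) and EHMT1 (3106) with the second lowest UCP1 (768), and AT 5 combined the highest CIDEA (4226) with a UCP1 of 3720. Among pairs of members, EHMT1 and EBF2 had an r of 0.74 and CIDEA and CEBPA an r of 0.68, whereas PRDM16 had no r above 0.29 with another member, over the same 14 libraries.

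In TH, CEBPB was called in both comparisons with the controls and no other member was. CEBPB codes for C/EBPβ, which outside fat is best known for its part in acute-phase and inflammatory transcription. The controls held 636 (Control 1) and 1471 (Control 3) normalized counts, the cold lambs 399 to 578 (median 524) and the AT lambs 273 to 766 (median 442). It fell by 1.09 ± 0.31 on the log2 scale in cold (adjusted p = 0.0278) and by 1.16 ± 0.31 in AT (adjusted p = 0.0185), by edgeR's quasi-likelihood test. All cold libraries lay below both controls, and AT 3 lay above Control 1. The calls rested on Control 3, since without it edgeR gave -0.34 for cold (adjusted p = 0.729) and -0.42 for AT (adjusted p = 0.64). Without Cold 5 the cold difference was -1.03 (adjusted p = 0.054 by edgeR), and with Control 2, at 533 normalized counts, the differences were -0.83 and -0.90 (adjusted p = 0.074 and 0.0555 by edgeR). Scaling also mattered, because the reference genes placed the median of all genes at -0.28 in both comparisons and TMM scaling at 0.02 and 0.05, and under TMM edgeR gave -0.74 (adjusted p = 0.114) and -0.80 (adjusted p = 0.0908) for CEBPB. Control 3 also had the highest thyroid follicular sum, 5877740 against 1325900 to 2874820 elsewhere, and its part in the CEBPB difference was not tested.

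The share of genes called in TH was 8.04% for cold against control (6.15% called lower) and 7.8% for AT against control (5.98% called lower), beside 1 of 7 members in each. Cold against AT called 0% of 16122 genes by edgeR, members included, with no member called by DESeq2's Wald test. At an unadjusted p under 0.05 there was 1 member of 7, beside 5.396% of all genes. CEBPB was the single member without overlap between cold and control, against 34.6% of all genes, and GABPA the single one between AT and control, against 27.3%. No member separated cold from AT, against 0.192% of all genes. The median log2FC of the members was -0.13 for cold and 0.17 for AT against control, beside -0.28 over all genes in both.

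The member with the unadjusted p under 0.05 was PRDM16, which in TH was higher in AT than in cold lambs. It held 25.7 to 54.0 normalized counts (median 38.8) in AT, 13.6 to 26.4 (median 21.6) in cold, and 18.5 and 27.8 in the controls. Only the 2 lowest AT libraries and the highest cold library overlapped. The difference, cold minus AT, was -0.84 ± 0.25 on the log2 scale (unadjusted p = 0.00457), and it failed the correction over all genes (adjusted p = 0.911 by edgeR). Each value rested on few reads, 16 to 54 per treated library. Against control edgeR gave 0.72 ± 0.37 for AT (adjusted p = 0.18) and -0.13 ± 0.36 for cold (adjusted p = 0.835), and the sign for cold turned under TMM scaling.

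GABPA and EHMT1 lay lower in treated TH without being called. GABPA held 1154 and 1541 normalized counts in the controls, 771 to 1073 in AT (median 1029) and 942 to 1481 in cold (median 1083), with a log2FC of -0.46 ± 0.19 for AT and -0.24 ± 0.19 for cold (adjusted p = 0.0951 and 0.393 by edgeR). EHMT1 held 2892 and 3890 in the controls, 2226 to 2913 in AT and 2297 to 2994 in cold, with -0.34 ± 0.15 and -0.37 ± 0.15 (adjusted p = 0.115 and 0.0934 by edgeR). These differences were close to the shift of -0.28 in the median of all genes. EBF2 ranged from 325 to 568 normalized counts over the treated lambs, with 431 and 413 in the controls and log2FC of -0.11 and 0.17.

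CIDEA and CEBPA were low in TH, with some libraries far above the rest. CIDEA held 33.7 and 48.9 normalized counts in the controls, 39.5 to 196 (AT 5) in AT and 23.1 to 111 (Cold 1) in cold. Control 2 held 444, more than any other TH library, so that including it turned the log2FC from 0.42 to -1.67 in cold and from 0.95 to -1.13 in AT, none of them called. CEBPA was highest in AT 6 (49.6) and Cold 1 (48.6), which were also the TH libraries with the highest ADIPOQ (4775 and 2756 normalized counts, against 143 to 2239 in the other libraries of the tests). The part of fat cells in these values was not tested.

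ZIC1 had reads in only 2 of 15 TH libraries, 50 in AT 3 and 4 in Control 1, and ZIC4 had reads in the same 2, at 58 and 11 normalized counts. These are the libraries with the high skeletal muscle sums, in which ACTA1, the skeletal muscle actin, stood at 1339890 and 133281 normalized counts against 7.30 to 1631 in the other 13. The part of muscle in the ZIC1 reads was not tested. LHX8 had 0 to 3 reads in all TH libraries except Cold 4 (10 reads) and AT 1 (17 reads).

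**Figure D4:**
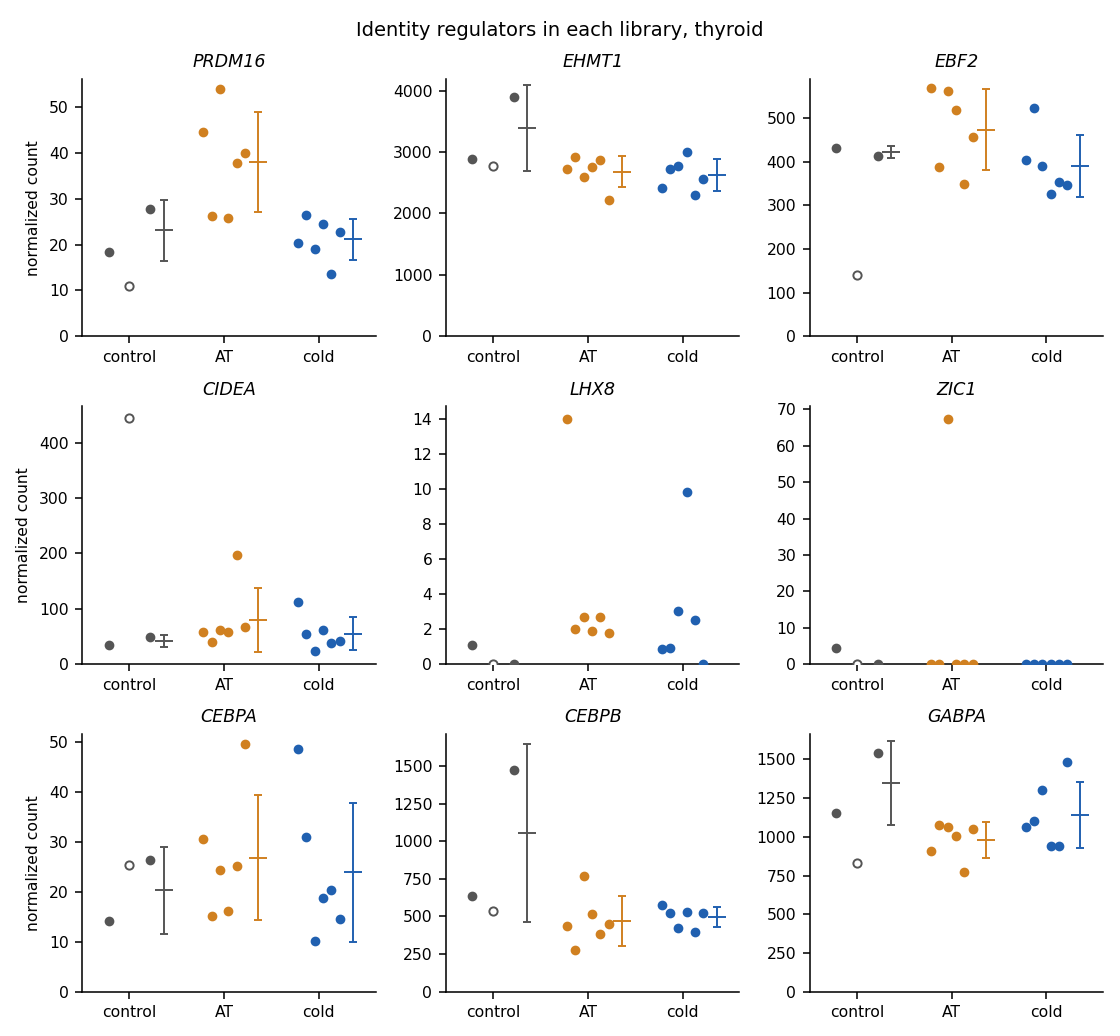
Normalized counts of the 9 genes in each TH library, by group (vertical axes start at 0 and differ between panels). Filled points are the lambs used in the tests, the open point is Control 2, and bars give mean ± SD of the filled points (not drawn for LHX8 and ZIC1). Control 3 is the high CEBPB library at 1471, Control 2 the high CIDEA library at 444, and AT 3 the high ZIC1 library at 67.4.

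The clearest differences were between the tissues. On a scale common to 28 libraries of 14 lambs, 4 of the 7 members other than LHX8 and ZIC1 were called higher in BAT and none lower, where 39.2% of all 17021 genes were called and 25% were called higher in BAT. CIDEA led with a log2FC of 6.20 ± 0.54 (73.4-fold), followed by CEBPA with 5.24 ± 0.43 (37.8-fold) and PRDM16 with 4.18 ± 0.26 (18.1-fold). EBF2 gave 3.33 ± 0.18 (10.1-fold). The adjusted p by edgeR was 2.13e-10 for CIDEA, 3.97e-11 for CEBPA, 1.13e-13 for PRDM16 and 9.67e-15 for EBF2. LHX8 passed the filter of the joint fit mainly through its BAT libraries, together with Cold 4 (10 reads) and AT 1 (17 reads) in TH. A difference was thus partly built into its being tested, and LHX8 is left out of these counts. It held 0 to 37.5 normalized counts in BAT and 0 to 8.82 in TH on this scale, and the tissues overlapped. ZIC1 passed the filter in no fit.

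On this common scale PRDM16 held 152 to 606 normalized counts in BAT libraries (median 324), against 8.49 to 34.9 in TH libraries (median 15.9). EBF2 held 1332 to 5297 in BAT against 210.1 to 363 in TH. For CIDEA the values were 406 to 6754 against 14.2 to 123, and for CEBPA they were 119 to 1381 against 6.16 to 30.3. For these 4 members every BAT library was above every TH library, which held for 11.4% of all genes tested. The lowest BAT library for CIDEA, CEBPA and EBF2 was AT 6, and even it lay above all thyroid libraries.

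The other 3 members tested differed between the tissues by less than 2-fold. EHMT1 was 1.86-fold higher in BAT (log2FC 0.89 ± 0.11, adjusted p = 1.24e-07 by edgeR), under the fold threshold. CEBPB differed by 0.36 (95% interval -0.10 to 0.83) and GABPA by 0.06 (-0.16 to 0.27), with the sign of GABPA turning under TMM (-0.11) and median-of-ratios scaling (-0.23). The median log2FC of the 7 members was 3.33, beside 0.24 over all genes tested.

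**Figure D5:**
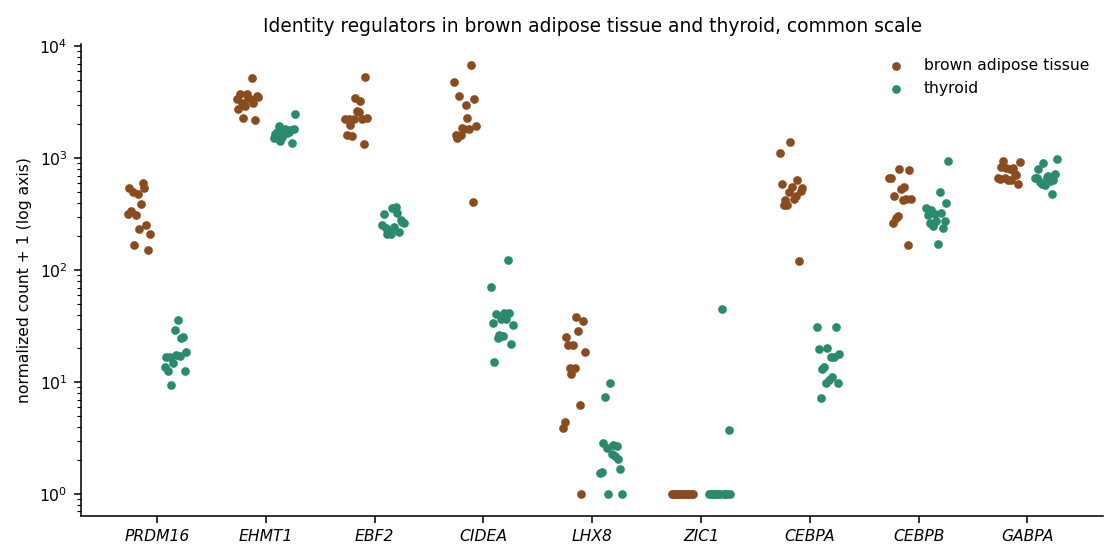
Normalized counts plus 1 of the 9 genes on the scale common to both tissues (log axis), 14 libraries each of BAT and TH. PRDM16, EBF2, CIDEA and CEBPA show no overlap between the tissues, whereas EHMT1, CEBPB and GABPA overlap and ZIC1 lies at 0 counts in all BAT libraries.

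No member was shown to respond differently in BAT and TH by a test of the difference itself. The interaction was called for 0 of 8 members in each comparison by edgeR and by DESeq2's Wald test, where edgeR called 0.188% of all genes for cold against control, 1.62% for AT against control and 0% for cold against AT. At an unadjusted p under 0.05 there were 0 members in each, beside 11.74%, 17.75% and 7.867% of all genes. The lowest unadjusted p was that of PRDM16 in cold against control (0.054), where the BAT response exceeded the TH response by 1.15 ± 0.57 on the log2 scale (adjusted p = 0.434 by edgeR), and the lowest adjusted p was that of EBF2 in AT against control (-0.72 ± 0.40, adjusted p = 0.358 by edgeR). For CEBPB the BAT response exceeded the TH response by 0.65 ± 0.61 in cold and 0.84 ± 0.61 in AT (adjusted p = 0.704 and 0.491), so the fall in TH is not shown to differ from BAT.

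Among 19 PRDM16 partners and cofactors, none was called in BAT in any comparison, with medians of -0.10 for cold and 0.07 for AT against control. In TH, 2 of the 19 fell in each comparison with the controls, a share near that of all genes called lower there (6.15% and 5.98%), beside list medians of -0.47 and -0.43. These were PPARGC1A, the coactivator of mitochondrial genes (-1.23 in cold, -1.20 in AT), and PRDM1, a relative of PRDM16 (-1.02 and -1.14). Under TMM scaling neither was called, with -0.90 and -0.84 for PPARGC1A and -0.68 and -0.75 for PRDM1. Between tissues, 6 of the 19 were higher in BAT and none lower, a share near the 25% of all genes called higher in BAT, led by PPARGC1B (4.87), PPARG, the master regulator of adipocytes (4.82), HLX (2.91) and YBX1 (1.79).

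Relatives of EBF2 were higher in BAT as well. Of 9 relatives of EBF2, LHX8 and ZIC1 in the table, 4 passed the filter. All 4 were higher in BAT, beside 25% of all genes, EBF3 by 2.88, EBF1 by 2.87, EBF4 by 2.55 and LHX6 by 2.23 on the log2 scale. None of them was called between treatments in either tissue. The median of the 4 was 0.31 for cold and 0.33 for AT against control in BAT, beside the log2FC of -0.94 and -0.60 of EBF2.

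Of the genes that act with or against the C/EBP factors, 1 of 9 was called in BAT, namely TRIB2, a pseudokinase that promotes C/EBPα breakdown. It fell by 1.66 on the log2 scale in AT against control, where 6.07% of all genes were called. In TH, 6.15% of all genes were called lower in cold and 5.98% in AT. TRIB2 fell there in cold (-1.32) and AT (-1.11), and TRIB1 (-1.005) fell in AT. NFIL3 (-1.42) and DDIT3 (-1.11), which codes for the C/EBP-inhibiting factor CHOP, fell in cold. Of these 5 calls, TMM scaling kept TRIB2 in cold (-1.01) and no other. The median of the 11 tested there was -0.96 in cold and -0.87 in AT, beside -0.28 over all genes. Between tissues, 5 of 11 were higher in BAT, led by TRIB3 (4.65) and KLF4 (3.399), beside 25% of all genes called higher there. TRIB1 was lower (-2.10), and so was KLF5 (-2.87). KLF5 passed the filter within TH but not within BAT, so that a difference was built into its being tested.

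For GABPA and its functional neighbours, the 10 tested GABP subunits and mitochondrial gene regulators held no call in BAT and none between the tissues, with a median of 0.28 there. In TH the calls were ESRRA, an estrogen-related receptor that drives mitochondrial genes (-1.36 in cold, -1.07 in AT), and TFB2M, a mitochondrial transcription factor (-1.17 in cold). With TMM scaling ESRRA in cold (-1.03) was the 1 call that held. The shares of all genes called lower in TH were 6.15% for cold and 5.98% for AT.

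Among lipid droplet genes beside CIDEA, 7 of 10 were higher in BAT than in TH, beside 25% of all genes. The largest differences were those of PLIN1 (5.25), PLIN4 (4.81), CIDEC (4.79) and PLIN5 (3.51). CIDEB (2.33), among the 7, passed the filter only in the fit of both tissues, so its difference may be built into its being tested. None of the 9 tested was called between treatments in BAT. In TH, PLIN2, the general droplet coat protein, fell by 1.35 in cold and by 1.71 in AT on the log2 scale. The latter call held under TMM scaling (-1.47). Of all genes there, 6.15% were called lower in cold and 5.98% in AT.

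Downstream of these regulators, 2 of 11 brown adipocyte effector genes were called in BAT in AT against control, and none in cold. These were the glycerol kinase GK (-2.03) and the fatty acid carrier FABP3 (-2.01). The shares of all genes called in BAT were 6.07% for AT and 1.21% for cold. The fall of FABP3 was not particular to BAT. In TH it was also called against control, at -2.195 in cold and -2.289 in AT, and under TMM scaling too. Between the tissues FABP3 was lower in BAT (-3.68), whereas GK was higher there (3.54). UCP1, the uncoupling protein, gave -1.42 ± 0.90 in cold and -2.23 ± 0.88 in AT (adjusted p = 0.432 and 0.127 by edgeR), with a list median of -0.90 and -0.84 while the members' medians stood at -0.10 and -0.05. White and general adipocyte genes held 2 higher (PCK1, 3.49, and SLC7A10, 1.91) and 1 lower (FABP4, -1.39) of 12 in AT against control, beside the same 6.07%. None of the 7 beige genes was called in BAT in any comparison.

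Repressors of the brown programme held the only called genes of these lists between cold and AT in BAT, where 0.275% of all genes were called. ID1 and ID2, which bind helix-loop-helix factors and keep them off DNA, were higher in cold than in AT lambs by 1.39 and 1.22 (adjusted p = 0.0198 for both by edgeR), and ID1 was lower in AT than in control lambs (-1.32). In TH, ID1 (-2.74 in cold, -2.80 in AT) and ID3 (-2.18 and -2.16) fell against control, all 4 also under TMM scaling. Genes called lower in TH made up 6.15% of all genes in cold and 5.98% in AT. The remaining 14 of the 16 repressors tested in BAT were not called between cold and AT, though ID3 (0.99, adjusted p = 0.037 by edgeR) missed only the threshold on size. The same held for TRIB2 among the C/EBP genes (0.91, adjusted p = 0.037 by edgeR). In BAT the members themselves differed between cold and AT by at most 0.35 in size on the log2 scale, with EBF2 (-0.35 ± 0.23) the largest.

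The genes whose level ran most closely with a member over the 14 BAT libraries were listed by Pearson r of log2(normalized count + 1) among 11061 candidates, as a description. For PRDM16 these were ADAMTSL5 (0.93), ST6GAL1 (0.90) and CDK20 (0.90), and for EHMT1 they were PLEKHN1, HEATR6 and ZGPAT (0.97 each). FAM160B2 (0.93), CAD (0.92) and TAZ (0.92) ran with EBF2, and BOLA3 (0.93) and STX8 (0.90) with CIDEA. CEBPA ran with COQ9 (0.92), ETFDH (0.92) and ZNF830 (0.90), of which the first is needed for coenzyme Q synthesis and the second passes electrons from fatty acid oxidation to it. CEBPB ran with EIF4EBP1 (0.90), MIF4GD (0.89) and HCN2 (0.88), and GABPA with IREB2 (0.94), MAP3K20 (0.92) and METTL18 (0.91). The libraries share group, depth and scaling, and the Spearman rho of ZNF830 with CEBPA was lower, at 0.51.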

How the data were processed

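RNA of BAT and TH from 15 lambs was sequenced on the BGISEQ-500 platform with paired reads of 150 bases. Per the study's methods and the submitters' processing notes, the authors checked reads with FastQC 0.11.9, trimmed them with Trimmomatic 0.39, aligned them with STAR 2.7.7a to Oar_rambouillet_v1.0 and counted them per gene with featureCounts (Subread 2.0.0), also counting multimapping reads, and deposited 1 table of raw counts. Whether strand was used in counting is not given in the sources used here, so reads of overlapping or antisense genes cannot be told apart.

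Counts were divided by size factors from ACTB, RPL19 and HUWE1. Genes that reached 10 reads in 10 or more libraries entered edgeR 4.0.16 (R 4.3.3), as robust quasi-likelihood fits for BAT (14905 genes), TH (16122 genes) and both tissues together (17021 genes, with tissue and treatment and their interaction), with Benjamini-Hochberg adjustment. A call needed an adjusted p under 0.05 and a log2FC of at least 1 in size. The excluded control was identified by matching its normalized values. Named genes were the members, at most 4 called genes per related list (the largest in size) with uncalled ones needed to describe a list or library, and, for each member averaging at least 50 normalized counts in BAT, the 3 genes above that level most alike to it. For CIDEA 1 of the 3 is not reported here. The members and lists were chosen with earlier results of these data known. On simulated counts the fit recovered 193 of 193 changed genes with 3 false calls for BAT cold against AT. It recovered 189 of 189 with 3 for TH cold against AT, and 164 of 199 with 7 for the interaction in cold against AT. The changed genes had a median log2FC of 1.975, 2.022 and 1.923 in size, in that order. Comparisons with the controls were not simulated. Recovery of smaller changes, or of changes against the controls, was therefore not tested. Whether changes of the simulated size are recovered at the spread of variable members, such as CIDEA, was not tested separately. The 2 libraries of a lamb were tied by its ID in the labels. Their deviations from the group means correlated with r between 0.0456 and 0.327, and the fit with lamb as a block was an alternative for the joint model. Other alternatives were DESeq2 1.42.0, TMM and median-of-ratios scaling, all 3 controls, RNA integrity number as a covariate, fits restricted to a single pair of groups, and each lamb left out. Fits without the filter on low counts and calls by adjusted p alone, without the log2FC threshold, were also alternatives. All 3 controls with TMM scaling was chosen after seeing the data. Replicates were separate lambs.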

Additional observations from a re-analysis of the deposited data

Results flagged for a closer look

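Within the 33 groups of 4 to 10 libraries tested for a lone value, 5 held 1 library set apart by a gap beyond Dixon's 95% limit. For normally distributed values, chance passes that limit in about 1 in 20 groups. The values here were normalized counts without a log, some from few reads, so that rate need not hold for them. CIDEA in TH stood at 196.3 normalized counts in AT 5, CEBPA in BAT at 716.3 in Cold 1 and ZIC1 in TH at 67.45 in AT 3. LHX8 in TH stood at 9.825 in Cold 4 and at 14.03 in AT 1, from 10 and 17 reads. Control 2, which entered no test, held 444.4 normalized counts of CIDEA in TH, 9.08 times the higher of the other controls, and 944.5 of CEBPA in BAT, 2.81 times the higher of the other controls.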

How the results depend on the processing

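Over 50 member results and 1134 settings, 1046 kept direction and call, 12 lost a call, 6 gained one and 70 changed sign, none of these called. The settings include calls by adjusted p alone, through which EHMT1 between tissues gained its call. With 2 controls, single lambs moved many values, and the causes were not tested. With the replicate block by lamb the paired fit gave 6.13 for CIDEA, 5.21 for CEBPA, 4.14 for PRDM16 and 3.28 for EBF2 between tissues and changed no call.

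The count of members called in BAT became 1 (PRDM16) for AT against control with DESeq2, with all 3 controls and with all 3 controls under TMM, and 1 (PRDM16) for cold with the latter, a setting chosen after seeing the data. In TH it became 0 for cold under TMM, median-of-ratios, all 3 controls and both together, and 0 for AT under TMM, median-of-ratios, all 3 controls and the fit of only the groups compared. With a lamb left out both counts ranged from 0 to 1. The CEBPB to CEBPA ratio of TH controls moved to 5.23 with all 3 controls.

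Signs turned as follows. With all 3 controls, without and with TMM, BAT cold gave EHMT1 0.27 and 0.22, CEBPA -0.55 and -0.71, CIDEA 0.23 and 0.15. BAT AT gave GABPA 0.19 and 0.075, EHMT1 0.45 and 0.33, CEBPA -0.49 and -0.70, CIDEA 0.29 and 0.18. TH cold gave EBF2 0.25 and 0.46, PRDM16 0.13 and 0.34, CIDEA -1.67 and -1.66, and TH AT gave CIDEA -1.13 and -1.08. With TMM in addition GABPA was 0.15 in TH cold and -0.19 between tissues. Under TMM and median-of-ratios, TH cold gave GABPA 0.065 and 0.067, EBF2 0.17 and 0.18, PRDM16 0.18 and 0.18, TH AT gave EHMT1 0.0080 and 0.0040, and GABPA between tissues was -0.11 and -0.23. BAT AT gave CIDEA 0.029 and 0.020, and EHMT1 0.015 under TMM. The RNA integrity number turned CIDEA in BAT cold against AT to 0.21.

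With a lamb left out, BAT cold ranged from -0.29 to 0.38 for GABPA, -0.21 to 0.21 for CEBPA and -0.46 to 0.35 for CIDEA. BAT AT ranged from -0.39 to 0.27 for GABPA, -1.06 to 0.13 for EBF2, -0.15 to 0.032 for EHMT1, -0.72 to 0.12 for CEBPB, -0.27 to 0.35 for CEBPA and -0.56 to 0.46 for CIDEA. BAT cold against AT ranged from -0.31 to 0.10 for CEBPB, -0.37 to 0.39 for CEBPA and -0.40 to 0.46 for CIDEA. TH cold ranged from -0.40 to 0.21 for PRDM16, -0.15 to 0.77 for CEBPA and -1.57 to -0.34 for CEBPB, and TH AT from -1.65 to -0.42 for CEBPB. TH cold against AT ranged from -0.079 to 0.0087 for EHMT1, -0.046 to 0.27 for CEBPB and -0.51 to 0.10 for CEBPA.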
